A study of Mus musculus with 7 samples.

Results

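Nuclease-accessible chromatin was examined at 9 genes that mark the sinusoidal endothelium of the liver, namely Stab1, Stab2, Lyve1, Clec4g, Kdr, Tek, Cdh5, Pecam1 and Gata4. All hotspots that overlapped a gene body or the 20 kb on either side were taken, which gave 209 of the 190871 hotspots in the series. A hotspot is a stretch where cleavage tags cluster above background. Hotspots that overlapped by at least 1 bp were merged, and the 9 windows held 96 of 94491 merged regions. Accessible chromatin lay in the window of every one of the 9 genes, as it did for 86.9% of 22365 genes with a protein-coding transcript.

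All samples were livers of male C57BL/6 mice aged 8 weeks. Frozen liver was pulverized and digested whole with Benzonase or with Cyanase, endonucleases that work in detergent and reducing agents, with 1 library at each of 0.25, 1 and 4 U per enzyme. DNase I was used on nuclei purified from fresh liver, and the labels list 1 such library, while the study describes its DNase I hotspots as called on combined replicates. The deposited lists held 60910 Benzonase, 57675 Cyanase and 72286 DNase I hotspots. Each list was called on pooled tags, so there is no spread between replicates, and tag numbers were not part of the columns, so the depth behind a hotspot is unknown. Enzyme and starting material changed together, and their parts in a difference between lists cannot be told apart. In whole liver, fewer cells of a type and less accessible chromatin per cell cannot be told apart either. The start sites of 10 hepatocyte genes, such as Alb and Apoa1, all lay inside hotspots of each nuclease, against 46.1% of all genes. These 10 genes were chosen with earlier results of these data known, so they are no independent check of the tissue label.

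Liver sinusoids are lined by a thin endothelium without a continuous basement membrane, pierced by pores through which plasma reaches the hepatocytes. These cells clear waste macromolecules from blood by receptors such as the stabilins, and they are outnumbered by hepatocytes. Gata4 is a zinc-finger transcription factor that directs their specialization, and it is also made in hepatocytes, so it is not restricted to them.

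The sequences just before the start sites are shown for 5 genes whose transcription start site (TSS) lay inside a hotspot, because the nucleases differed there. Each line gives the 150 bp before the first exon of the reference transcript, the longest protein-coding one, 5′ to 3′ on the strand of the gene, on mouse build mm9 (NCBIM37), with CpG dinucleotides in capitals. For Tek, the stretch ends before another exon that starts 11 bp farther upstream, and for Gata4 it precedes an internal start site, since 2 of its other start sites lie farther upstream.
Stab1 promoter, chr14:31981828-31981977, minus strand: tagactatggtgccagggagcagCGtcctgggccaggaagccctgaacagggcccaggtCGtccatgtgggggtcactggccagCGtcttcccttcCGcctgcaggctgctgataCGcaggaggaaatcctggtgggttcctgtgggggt
Clec4g promoter, chr8:3720652-3720801, minus strand: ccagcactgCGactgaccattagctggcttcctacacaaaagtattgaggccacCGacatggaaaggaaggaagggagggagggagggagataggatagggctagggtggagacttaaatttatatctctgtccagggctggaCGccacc
Kdr promoter, chr5:76374484-76374633, minus strand: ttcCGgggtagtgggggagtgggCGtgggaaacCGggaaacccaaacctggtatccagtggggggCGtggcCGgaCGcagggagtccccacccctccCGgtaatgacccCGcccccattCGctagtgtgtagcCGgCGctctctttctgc
Tek promoter, chr4:94405830-94405979, plus strand: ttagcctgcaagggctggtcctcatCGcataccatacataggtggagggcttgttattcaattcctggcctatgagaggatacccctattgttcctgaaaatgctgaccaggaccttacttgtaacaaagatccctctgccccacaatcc
Gata4 promoter, chr14:63864109-63864258, minus strand: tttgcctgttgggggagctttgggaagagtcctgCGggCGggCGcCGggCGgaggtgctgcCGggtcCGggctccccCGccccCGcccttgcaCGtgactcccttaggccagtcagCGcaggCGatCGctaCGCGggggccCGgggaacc

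The number of CpG dinucleotides in these stretches was 5 for Stab1, 3 for Clec4g, 11 for Kdr, 1 for Tek and 16 for Gata4. GC content was 64.0%, 53.3%, 66.7%, 48.7% and 74.0% in the same order. The stretches of Stab1 and Clec4g, which had no DNase I hotspot within 1 kb of the TSS, lay between Tek and Gata4 in GC content, and both Tek and Gata4 had hotspots of all 3 nucleases. The part of GC content in this difference was not tested, and the shares by GC content over all genes are given below.

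For 3 genes, Stab1, Clec4g and Cdh5, the promoter was a hotspot in frozen tissue digested with Benzonase and with Cyanase and had no DNase I hotspot within 1 kb. Counting any TSS of a protein-coding transcript that lay inside a hotspot, 6 of 9 genes were covered by Benzonase (66.7%, 95% Wilson interval 35.4% to 87.9%) and 6 of 9 by Cyanase, the same 6 genes. DNase I covered 2 of 9, Tek and Gata4 (22.2%, 6.32% to 54.7%). Over all genes the shares were 57.4% for Benzonase, 55.7% for Cyanase and 47.4% for DNase I. The TSS lay in Benzonase and Cyanase hotspots without a DNase I hotspot in 4 of 9 genes (44.4%, 18.9% to 73.3%), against 8.81% of all genes. The fourth of these genes was Kdr, where the DNase I hotspot began 3 bp upstream of the TSS, so that its place in this count rests on 3 bp. Hotspots of all 3 nucleases held the TSS in 2 of 9 genes, against 46.1% of all genes, and no hotspot did in 3 of 9, against 40.9%. None of the 9 genes had its TSS in a DNase I hotspot alone, a state found in 0.867% of all genes. When a hotspot within 1 kb of the TSS was enough, DNase I reached 3 of 9 genes with Kdr added, Benzonase and Cyanase stayed at 6, and the share of all genes with both of these and no DNase I was 8.34%. With the TSSs of noncoding transcripts included, DNase I covered 4 genes, because noncoding transcripts of Stab2 and Clec4g start inside hotspots of all 3 nucleases.

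**Figure D1:**
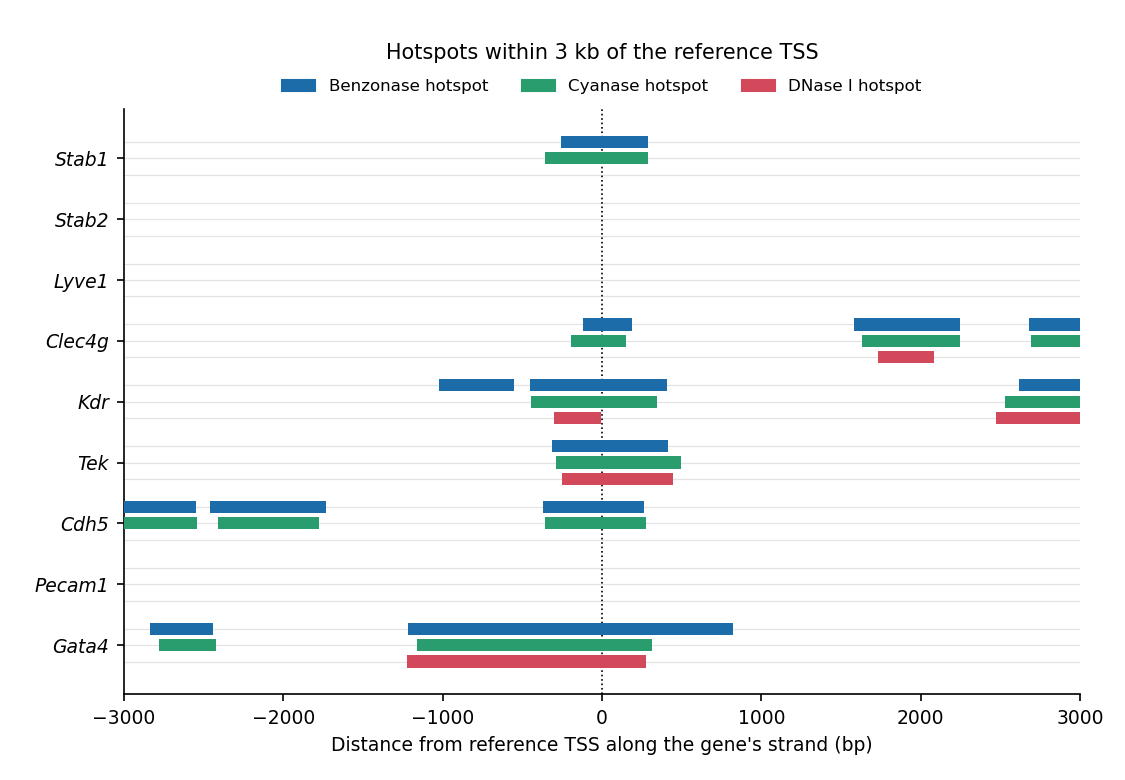
Hotspots within 3 kb of the reference TSS of each gene (x axis, bp along the strand of the gene, 0 at the TSS), with 1 row per nuclease and each bar drawn at the width of the hotspot. Stab1, Clec4g and Cdh5 had Benzonase and Cyanase bars over the TSS and no DNase I bar there, the DNase I bar of Kdr stopped 3 bp before the TSS, Tek and Gata4 had all 3, and Stab2, Lyve1 and Pecam1 had none in this range.

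Stab1 and Stab2 encode stabilins, scavenger receptors that take up hyaluronan and modified lipoproteins. Stab1 (ENSMUSG00000042286.7, 69 exons) lies on the minus strand of chromosome 14 from 31952199 to 31981827. Its window held 9 Benzonase, 8 Cyanase and 6 DNase I hotspots. At the TSS, the Benzonase hotspot was 546 bp wide and the Cyanase hotspot 645 bp, while the nearest DNase I hotspot lay 3986 bp away. Inside the gene a single region, over exons 11 to 14, was a hotspot of all 3 nucleases. The 3′ flank held 5 regions near the genes 2010107H07Rik and Nt5dc2, of which 4 lacked DNase I, and the 5′ flank held 4 regions within the annotated bounds of Nisch and Tnnc1, of which 2 were DNase I alone. The nearest TSS belonged to another gene for 8 of the 11 regions.

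Stab2 (ENSMUSG00000035459.9, 69 exons), on the minus strand of chromosome 10 from 86303943 to 86470770, differed from Stab1. It had no hotspot at its TSS, yet its window held 17 Benzonase, 15 Cyanase and 17 DNase I hotspots, the most of the 9 genes for each nuclease. That window was also the longest, 206.8 kb. It held 9.67 regions per 100 kb, within the range from 3.98 for Tek to 19.1 for Lyve1. Of its 20 regions, 14 were hotspots of all 3 nucleases, 3 were DNase I alone and 3 lacked DNase I. The region nearest to the TSS lay 3967 bp upstream and was shared by all 3 nucleases, as were the other 2 regions upstream of the gene. A cluster of 6 regions between introns 41 and 45 included the widest shared region of this window, of 1693 bp in intron 44, and the widest DNase I region of all 9 windows without another nuclease, of 1379 bp over exon 43.

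Lyve1 encodes a hyaluronan receptor of lymphatic and sinusoidal endothelium. The gene (ENSMUSG00000030787.3, 6 exons) lies on the minus strand of chromosome 7 from 117994121 to 118006467. Its window held 7 Benzonase, 8 Cyanase and 9 DNase I hotspots. No nuclease gave a hotspot at the TSS, and the nearest, of DNase I and Cyanase in intron 3, lay 7302 bp inside the gene. Of the 10 regions, 7 were common, 2 were DNase I alone, one of them in the last exon, and 1 lacked DNase I. The widest region of the window, of 1212 bp, held the TSS of the neighbouring gene Rnf141 and was a hotspot of all 3 nucleases.

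Clec4g encodes LSECtin, a C-type lectin of the sinusoidal endothelial surface. The gene (ENSMUSG00000074491.3, 9 exons) is on the minus strand of chromosome 8 from 3707064 to 3720651. It had the fewest regions of the 9 windows, 5, made of 4 Benzonase, 4 Cyanase and 3 DNase I hotspots. The TSS hotspots were narrow, 313 bp for Benzonase and 346 bp for Cyanase, and the nearest DNase I hotspot began 1732 bp inside the gene. The promoter hotspots were lost when hotspots narrower than the lower width quartile of their list were left out, which kept 3 genes, Stab1, Kdr and Cdh5, in the state without DNase I at the TSS. A second region without DNase I lay over exons 6 and 7, and no region of this window was DNase I alone.

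Kdr encodes VEGF receptor 2 and Tek encodes TIE2, the angiopoietin receptor, both receptor tyrosine kinases of blood vessels. Kdr (ENSMUSG00000062960.6, 30 exons) lies on the minus strand of chromosome 5 from 76328852 to 76374483, and its window held 8 Benzonase, 6 Cyanase and 8 DNase I hotspots. At the promoter, a CpG island, the Benzonase hotspot was 861 bp wide and the Cyanase hotspot 789 bp, and both spanned the TSS. The DNase I hotspot there was 296 bp wide and lay wholly upstream of the TSS. Of the 10 regions, 6 were hotspots of all 3 nucleases, including a pair in and beside exon 2 and one of 1310 bp over exons 10 and 11. DNase I alone marked 2 intronic regions, in introns 3 and 22, and 2 narrow regions were Benzonase alone.

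Tek (ENSMUSG00000006386.9, 23 exons), on the plus strand of chromosome 4 from 94405980 to 94541667, had more hotspots of DNase I than of the other enzymes. Its window held 3 Benzonase, 3 Cyanase and 7 DNase I hotspots. All 3 Benzonase and all 3 Cyanase hotspots overlapped DNase I hotspots, at the promoter, in intron 1 and over exon 11. The promoter hotspots were of like width, 726, 782 and 699 bp for Benzonase, Cyanase and DNase I. The other 4 DNase I hotspots stood alone in the gene body, with a GC content of 35.1% to 39.5%. No region of the Tek window lacked DNase I, and it was the sparsest of the 9 windows at 3.98 regions per 100 kb.

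Cdh5 encodes VE-cadherin, the adhesion molecule of endothelial junctions, and Pecam1 encodes the junctional receptor CD31. Cdh5 (ENSMUSG00000031871.8, 12 exons) lies on the plus strand of chromosome 8 from 106625525 to 106668402, and its window held 5 Benzonase, 7 Cyanase and 2 DNase I hotspots. Of its 8 regions, 6 lacked DNase I. A row of 4 of them, each a hotspot of both Benzonase and Cyanase, ran from 5819 bp upstream to the TSS, with a GC content of 53.8% to 58.0%. At the TSS the hotspots were 632 and 633 bp wide, and the nearest DNase I hotspot was 8870 bp away in intron 1. That intronic region, of 1125 bp, was the only one shared by all 3 nucleases in this window.

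Pecam1 (ENSMUSG00000020717.11, 16 exons in its longest transcript) lies on the minus strand of chromosome 11 from 106515531 to 106611942. Its window held 6 Benzonase, 7 Cyanase and 11 DNase I hotspots, and every Benzonase and Cyanase hotspot fell in a region that DNase I also marked. The 11 regions were 8 common and 3 DNase I alone. None of the 6 annotated TSSs lay in a hotspot, and the TSS of the longest transcript was 12835 bp from the nearest one. The most 5′ of its TSSs was 1032 bp from a DNase I hotspot and 1064 bp from a Cyanase hotspot. Regions without DNase I thus made up 6 of 8 for Cdh5, the highest share of the 9 windows, and 0 of 11 for Pecam1, as for Tek.

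Gata4 (ENSMUSG00000021944.8) lies on the minus strand of chromosome 14 from 63817759 to 63890529, and its window held 10 Benzonase, 10 Cyanase and 9 DNase I hotspots. The 3 TSSs between 63864085 and 63864108 lay in the widest region of all 9 windows, 2045 bp, which was a CpG island and a hotspot of all 3 nucleases. The Benzonase hotspot of 2035 bp reached farther into the gene than the Cyanase hotspot of 1473 bp and the DNase I hotspot of 1502 bp. The other 3 annotated TSSs of Gata4 were outside hotspots. Upstream of the promoter, 3 regions centred 2627, 6503 and 10682 bp from the TSS were hotspots of Benzonase and Cyanase without DNase I, with GC contents of 56.3%, 59.4% and 65.1%, and the last 2 overlapped CpG islands. Inside the gene, 3 regions in intron 2 were DNase I alone.

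**Figure D2:**
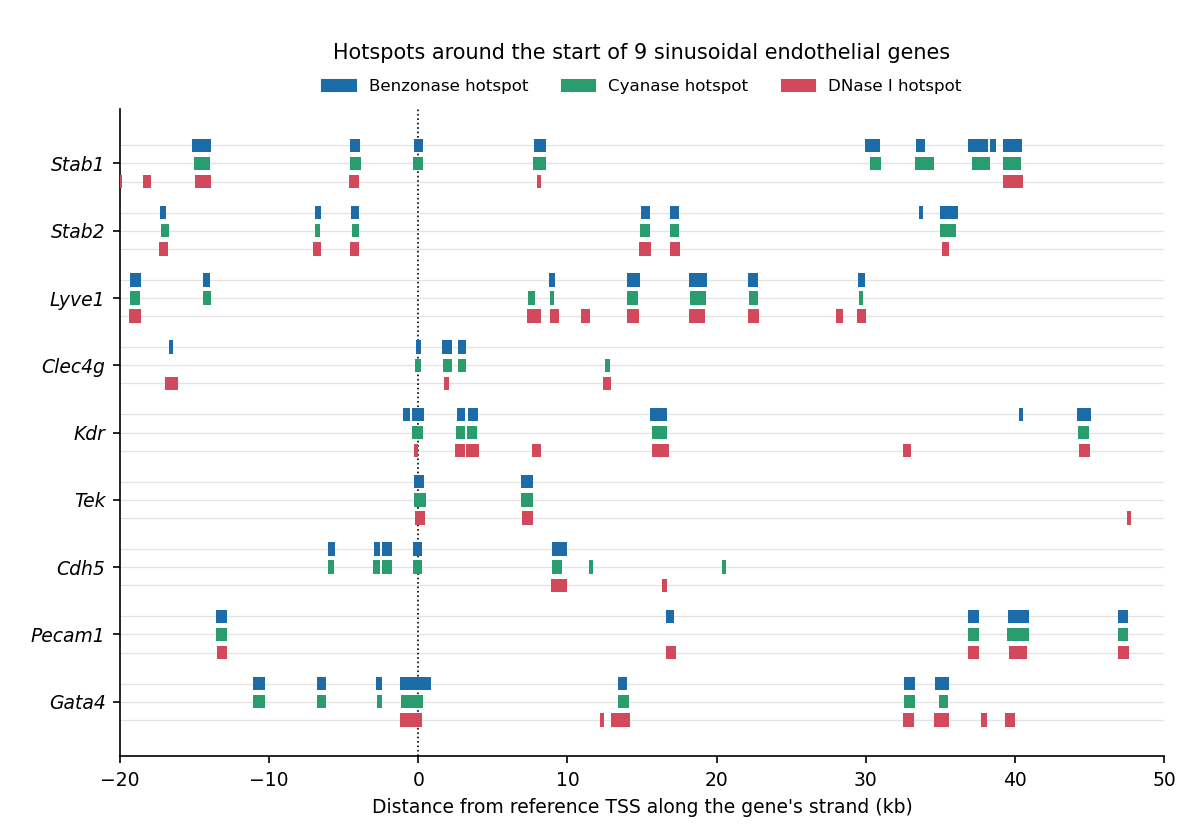
Hotspots from 20 kb before to 50 kb after the reference TSS of each gene (x axis, kb along the strand of the gene), 1 row per nuclease, drawn only inside the window of the gene and its 20 kb flanks. Cdh5 had 4 Benzonase and Cyanase regions without DNase I up to and at its TSS, Stab2 had shared hotspots on both sides of an empty TSS, and DNase I bars without a partner stood within Kdr and Lyve1.

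Over all 9 windows the lists were of nearly equal size, with 69 Benzonase, 68 Cyanase and 72 DNase I hotspots, while the genes differed. Benzonase hotspots outnumbered DNase I hotspots in 4 windows, were fewer in 3 and were equal in 2. Of the 96 regions, 51 held both a DNase I hotspot and a Benzonase or Cyanase hotspot (53.1%, 43.2% to 62.8%), against 45.4% of all regions. All 3 nucleases were present in 45 of the 96 (46.9%, 37.2% to 56.8%), against 40.0% of all regions. DNase I stood alone in 21 (21.9%, 14.8% to 31.1%), against 28.3%. Benzonase or Cyanase stood without DNase I in 24 (25.0%, 17.4% to 34.5%), against 26.3%. These 4 intervals each held the whole-series share. The 17 regions with both Benzonase and Cyanase and without DNase I made up 17.7% of the 96 (11.4% to 26.5%), against 10.2% of all regions. Of the other regions without DNase I, 5 were Benzonase alone and 2 Cyanase alone. Regions with both Benzonase and Cyanase and no DNase I were also counted for the marker lists described below. They made up 19.1% for other endothelial, 22.2% for stellate, 16.7% for bile duct, 13.5% for hepatocyte and 9.43% for macrophage genes. In the 9 windows these regions came unevenly from the genes, with 5 in the Gata4 window and 4 in the Cdh5 window. Their share was not recomputed with genes left out. Regions are not replicates, so whether an interval holds the whole-series share is not a test.

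Regions were also counted by place, with no test. Of 41 regions that overlapped a reference transcript of any gene but no exon or TSS, 13 were DNase I alone (31.7%, 19.6% to 47.0%), against 35.0% of such regions over the series, and 5 lacked DNase I (12.2%, 5.32% to 25.5%), against 22.1%. Of 23 regions that overlapped an exon but held no TSS, 5 were DNase I alone (21.7%, 9.66% to 41.9%), against 19.6% over the series. Another 4 lacked DNase I (17.4%, 6.98% to 37.1%), against 38.9%. Of 22 regions outside reference transcripts and without a TSS, 3 were DNase I alone (13.6%, 4.75% to 33.3%), against 33.1%, and 10 lacked DNase I (45.5%, 26.9% to 65.3%), against 29.2%. The 10 regions that held a TSS, 6 of the members and 4 of the neighbours 2010107H07Rik, Nt5dc2, Rnf141 and Neil2, comprised 5 with all 3 nucleases and 5 with Benzonase and Cyanase without DNase I. Over the series, 14.5% of 13076 TSS-holding regions were of the latter kind and 78.1% had all 3 nucleases. For 34 of the 96 regions the nearest protein-coding TSS belonged to another gene. Among the other 62, there were 34 common regions, 18 without DNase I and 10 with DNase I alone.

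**Figure D3:**
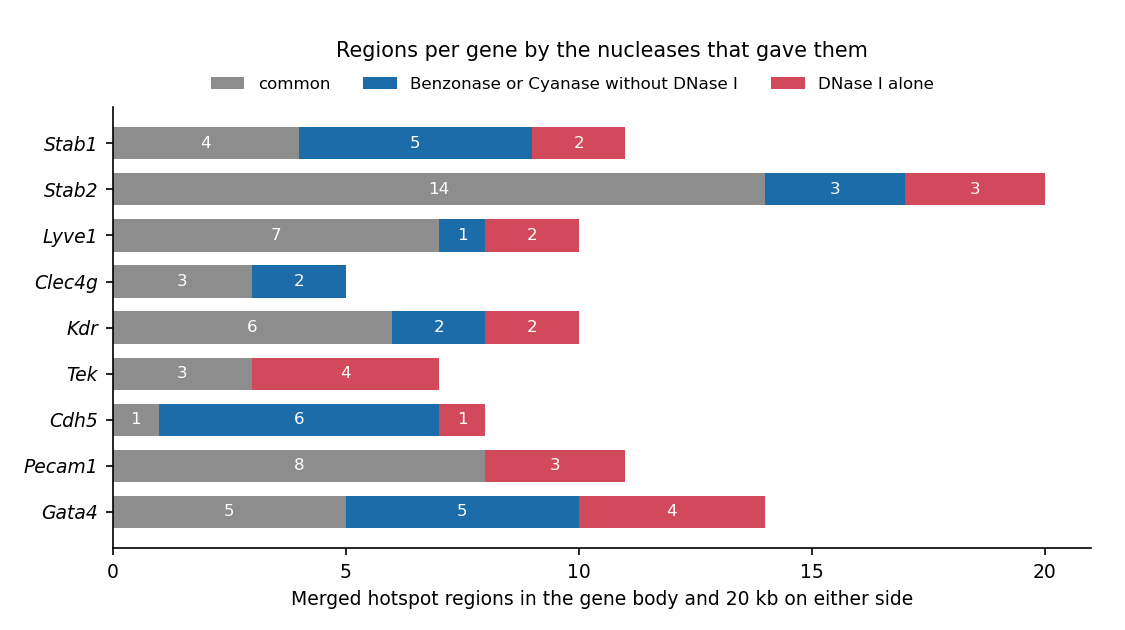
Number of merged regions in the window of each gene (x axis), split into regions common to DNase I and at least 1 of Benzonase and Cyanase (grey), regions of Benzonase or Cyanase without DNase I (blue) and regions of DNase I alone (red). Cdh5 had 6 of 8 regions in blue, while Tek and Pecam1 had none in blue and 4 and 3 in red.

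The 2 kinds of unshared region differed in base composition, as they did over the genome. The central 150 bp of the widest example of each is shown, with CpG dinucleotides in capitals. The first comes from a 1427 bp region, 1400 bp from the TSS of 2010107H07Rik, and the second from the 1379 bp region of Stab2 named above.
Stab1 window, Benzonase and Cyanase, chr14:31944154-31944303, plus strand: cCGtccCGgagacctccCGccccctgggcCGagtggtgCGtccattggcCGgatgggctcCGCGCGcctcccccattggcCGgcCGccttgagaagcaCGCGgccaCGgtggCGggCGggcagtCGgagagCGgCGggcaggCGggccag
Stab2 window, DNase I alone, chr10:86348977-86349126, plus strand: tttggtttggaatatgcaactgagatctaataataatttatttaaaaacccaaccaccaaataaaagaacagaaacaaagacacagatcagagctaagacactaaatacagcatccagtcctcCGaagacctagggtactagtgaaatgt

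The first stretch had a GC content of 78.0% and 20 CpG dinucleotides, and the second 35.3% and 1. Over all regions of the 9 windows, GC content averaged 54.7% ± 5.64 (SD between regions, n = 24) without DNase I, 48.8% ± 5.10 (n = 51) where the nucleases shared the region, and 44.8% ± 4.92 (n = 21) for DNase I alone. The means of the same classes over all regions of the series were 54.7%, 49.5% and 42.3%. Regions without DNase I were on average 5.78 percentage points richer in GC than the 5 kb on either side, and 21 of the 24 were above their flanks, while the average over the series was 9.86 points. DNase I regions differed from their flanks by -0.56 points on average, with 12 of 21 above them. Ranges overlapped, from 39.6% to 65.1% for the former and from 35.1% to 53.0% for the latter. A CpG island overlapped 8 of the 96 regions (8.33%), against 13.9% of all regions. These were 4 common regions, 4 regions without DNase I and 0 of the 21 with DNase I alone.

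**Figure D4:**
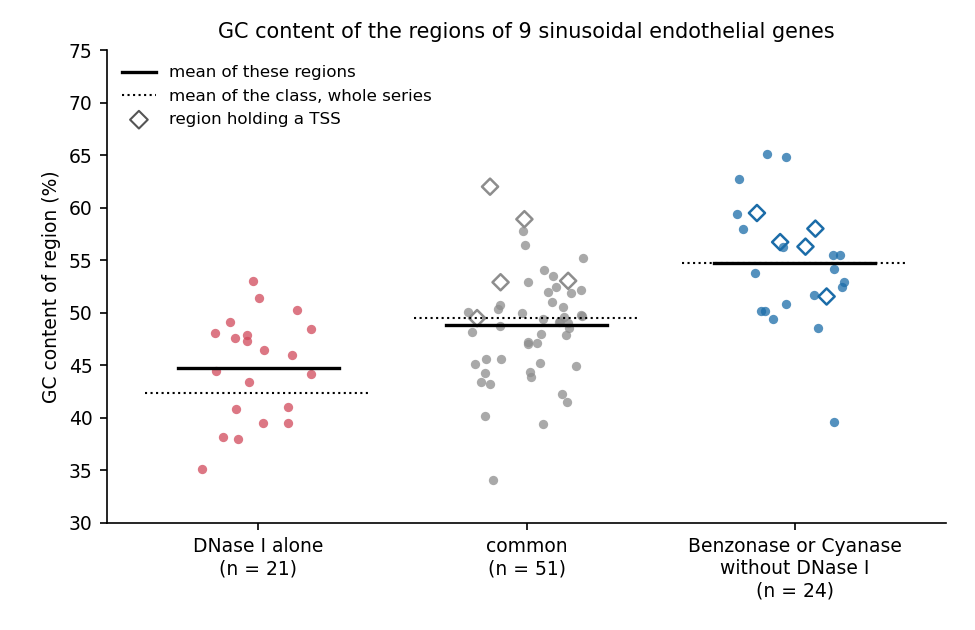
GC content (y axis, %) of each of the 96 regions by class, with the class mean as a solid line and the mean of that class over the whole series as a dotted line. Diamonds are regions that hold a TSS, and the class means rose from 44.8% through 48.8% to 54.7%.

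The promoters of Stab1, Clec4g and Cdh5 lay below the mean GC content of others of their kind. Over the series, 1897 TSS-holding regions had Benzonase and Cyanase hotspots and no DNase I hotspot, in which GC content averaged 63.1% ± 5.73 (SD between regions), and 80.1% of them overlapped a CpG island. The corresponding regions of Stab1, Clec4g and Cdh5 had 58.0%, 51.6% and 56.7%, and none overlapped a CpG island. Among all genes whose 150 bp before the TSS held 55% to 65% GC, the bin of Stab1, 8.59% had Benzonase and Cyanase without DNase I at the TSS. In the bin from 45% to 55%, which held Clec4g, Lyve1, Stab2 and Tek, the share was 4.51%. It was 17.6% from 65% up, the bin of Kdr and Gata4, and 1.37% below 45%, the bin of Pecam1.

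Where all 3 nucleases marked a region, Benzonase and Cyanase shared the most bases in the median, though not in every region. In the 45 such regions the midpoints of the Benzonase and Cyanase hotspots were a median of 27.0 bp apart, against 42.5 bp between Benzonase and DNase I and 44.0 bp between Cyanase and DNase I. The medians over 33922 such regions of the series with 1 hotspot of each nuclease were 25.0, 49.5 and 47.5 bp. The share of bases in common was taken out of the bases covered by either hotspot of a pair. Its median was 88.8%, 83.7% and 84.0% for the same pairs. It was lower at some regions, with a lower quartile of 60.9% and a minimum of 33.0% between Benzonase and DNase I, and 62.2% and 31.1% between Cyanase and DNase I. Both minima were at exons 11 to 14 of Stab1, where the DNase I hotspot of 266 bp lay wholly inside the wider Benzonase and Cyanase hotspots. A low share can thus reflect a difference in width rather than in place. Between Benzonase and Cyanase these were 84.4% and 57.6%. Some regions went against the medians, such as that in intron 1 of Cdh5. There Benzonase shared 91.5% with DNase I and 67.2% with Cyanase, whose narrower hotspot lay wholly inside that of Benzonase. DNase I gave the widest of the 3 hotspots in 19 of 45 regions (42.2%) and the narrowest in 17 (37.8%), against 43.4% and 42.8% over the series. Common regions had a median width of 824 bp, against 544 bp for regions without DNase I and 534 bp for DNase I alone. Over the series the medians were 863, 453 and 549 bp. A common region spans merged hotspots of more than 1 list, which makes it wider by construction.

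Short motifs of endothelial and hepatocyte transcription factors were searched on both strands in the central 150 bp of each region. ETS factors, of which Erg and Fli1 are endothelial, were represented by CCGGAAG or CAGGAAG, and 16 of 96 regions held a match (16.7%, 10.5% to 25.4%), against 9.62% of all regions. Matches lay in the regions of Kdr at exons 10 and 11 and at the last exon, in the Tek intron 1 region and in 2 regions upstream of Cdh5. GATA factors, represented by AGATAA or TGATAA, had matches in 13 regions (13.5%, 8.09% to 21.8%), against 13.0%. Of the 13, 11 were common regions (21.6% of the 51, 12.5% to 34.6%, against 11.8% of common regions over the series), and 1 was DNase I alone (4.76% of the 21, 0.846% to 22.7%, against 20.4%). The Tek promoter region and 2 adjacent regions in intron 3 of Stab2 were among these. The SOX motif ACAATG was found in 11 regions (11.5%, 6.52% to 19.4%), against 7.05%. AP-1 (TGANTCA) matched 5 regions, KLF (CACACCC) 3, HNF4 (CAAAGTC) 4 and forkhead (TGTTTAC) 1, against whole-series shares of 5.42%, 4.11%, 4.36% and 3.89%. A match says only that these letters occur in the window.

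Other cell types of the liver were compared through lists of marker genes. Among 22 other endothelial genes, the TSS lay in a hotspot of Benzonase for 17 (77.3%), of Cyanase for 19 (86.4%) and of DNase I for 10 (45.5%). Over all genes the shares were 57.4%, 55.7% and 47.4%, so that DNase I was near its share of all genes. Of the 22 genes, 9 had Benzonase and Cyanase without DNase I (40.9%, 23.3% to 61.3%), against 8.81% of all genes. The 9 were Flt1, a VEGF receptor, Eng, a TGF-beta co-receptor, the adhesion molecule Icam2, Egfl7, the transcription factor Sox18, Dnase1l3, Gpr182, and the Wnt pathway ligands Rspo3 and Wnt2. Another 8 had all 3 nucleases, including Tie1, Esam and Cldn5, and Vwf, Emcn and Cd34 had none. No gene of either endothelial list had its TSS in a DNase I hotspot alone.

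For stellate cells, the pericytes that store vitamin A around the sinusoid, DNase I was again lowest, as it was over all genes. Of 9 stellate genes, Benzonase covered 5 TSSs (55.6%), Cyanase 8 (88.9%) and DNase I 1 (11.1%), that of Dcn. Over all genes the shares were 57.4%, 55.7% and 47.4%. Benzonase and Cyanase without DNase I marked 5 of the 9 (55.6%, 26.7% to 81.1%), against 8.81% of all genes. These were Lrat, which esterifies retinol, Reln, Pdgfrb, Hand2 and Colec11. Regions without DNase I made up 22 of 45 in the windows of the stellate genes (48.9%, 35.0% to 63.0%), against 26.3% over the series.

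Kupffer cells, the resident macrophages of the sinusoid, showed the reverse. Of 10 macrophage genes, DNase I covered 8 TSSs (80.0%, 49.0% to 94.3%), Benzonase 1 and Cyanase 1. Over all genes the shares were 47.4% for DNase I, 57.4% for Benzonase and 55.7% for Cyanase. DNase I alone marked 6 (60.0%, 31.3% to 83.2%), against 0.867% of all genes. The 6 were Csf1r, the CSF1 receptor, Cd68, the scavenger receptor Marco, Timd4, Cd5l and Ptprc, which encodes CD45. The windows of Marco, Timd4 and Cd5l held 2, 4 and 4 DNase I hotspots and no Benzonase or Cyanase hotspot. DNase I alone made up 28 of 53 regions in the macrophage windows (52.8%, 39.7% to 65.6%), against 21.9% for the 9 sinusoidal endothelial genes and 28.3% over the series. Of 5 bile duct genes, Benzonase covered 2, Cyanase 1 and DNase I 1.

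Base composition also differed between the lists. In the 150 bp before the TSS, GC content averaged 57.0% ± 10.2 (SD between genes) for the 9 sinusoidal endothelial genes, 56.0% ± 9.14 for the other endothelial genes, 62.6% ± 11.2 for stellate genes, 47.3% ± 7.40 for macrophage genes, 55.2% ± 10.2 for bile duct genes and 50.3% ± 8.88 for hepatocyte genes. Over all genes the mean was 66.7% where Benzonase and Cyanase marked the TSS without DNase I, 62.5% with all 3 nucleases and 44.7% with DNase I alone. The bile duct genes had 0 of 5 TSSs marked by Benzonase and Cyanase without DNase I, against 8.81% of all genes. With 5 genes the interval of that share, 0.0% to 43.4%, held the 40.9% of the other endothelial genes. The hepatocyte genes had all 10 TSSs in hotspots of each nuclease. How common a cell type is in liver differs between the lists as well. The part of GC content in the differences between cell types was not tested.

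**Figure D5:**
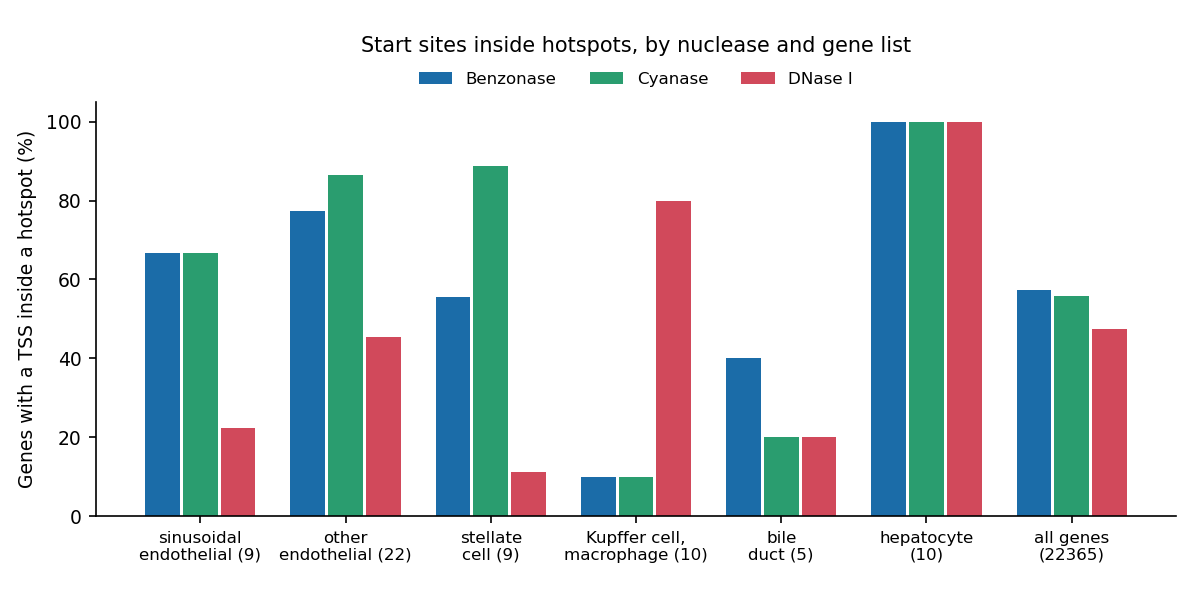
Share of genes with a protein-coding TSS inside a hotspot (y axis, %), by nuclease and gene list, with the number of genes in brackets. DNase I stood below Benzonase and Cyanase in both endothelial lists and the stellate list and above them in the macrophage list, and all 3 were at 100% for hepatocyte genes. Over all genes DNase I was also lowest, at 47.4% against 57.4% for Benzonase and 55.7% for Cyanase.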

How the data were processed

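Hotspot lists of mouse liver were used as deposited, 1 per nuclease. The labels give 3 Benzonase, 3 Cyanase and 1 DNase I library, and the study describes combined replicates for DNase I. The authors used Eland or Bowtie for alignment to mm9, combined the tags of an enzyme and kept hotspots at an FDR of 0%. The deposited columns give chromosome, start and end, with no count or score. The file headers call the lists unmerged, and each holds more hotspots than the study counts for that nuclease, so they may not be the lists it describes. There were 0 columns of other samples. Starts were read as BED positions and printed from 1. The track lines of the files leave an uncertainty of 1 bp in the coordinates.

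Genes, exons and TSSs came from GENCODE M1 on NCBIM37, and the reference transcript of a gene was its protein-coding transcript of greatest spliced length. Hotspots of the lists were merged on an overlap of at least 1 bp. CpG islands were maximal-scoring segments (17 per CpG) that reached 200 bp, with more than 50% GC and an observed to expected CpG ratio above 0.6. The 95% Wilson intervals of shares reflect counting error alone. No test was run, because regions and genes are not replicates of a condition. Merging, islands and motifs were tested on simulated data. The tools were pandas 2.3.3 and numpy 2.4.6 under Python 3.11.15, scipy 1.17.1 for intervals, numba 0.67.0 for islands and matplotlib 3.10.9 for plots.

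The 9 genes and the marker lists were chosen with earlier results of these data known. Genes named by rule were the 9 and neighbours with a region at their TSS inside a window. List genes whose TSS state differed between DNase I and both other enzymes were also named by rule. Further genes, such as Alb, Apoa1, Tie1, Esam, Cldn5, Vwf, Emcn, Cd34, Dcn, Nisch and Tnnc1, were named outside these rules. Regions named were those at a TSS, the widest of each window or class, and the unshared regions nearest a TSS, and a few others were added after their values were seen. Alternatives were other overlaps, flanks, TSS rules, hotspot widths, genes left out, and stricter islands. For the marker lists, the alternatives were added after the data were seen. Tags of single concentrations were not analysed here, and 1 sequence is not reported here.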

Additional observations from a re-analysis of the deposited data

How the results depend on the processing

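Of 70 alternatives for the 9 sinusoidal endothelial genes, 67 stayed within the interval of the share, 1 SD of the GC content or 1.5 times the count. These bounds are wide and most alternatives reuse the same regions, so this count says little about robustness. The number of genes with Benzonase and Cyanase and without DNase I at the TSS was not among the 70. It was 3 or 4 under each TSS rule. With 1 gene left out, the share of regions with DNase I alone ran from 19.1% to 23.7%, that without DNase I from 20.5% to 28.2%, and that of common regions from 48.7% to 56.8%. The number of genes with the TSS in a DNase I hotspot went from 2 to 4 with the TSSs of all annotated transcripts and to 1 with the 5′-most TSS alone. Under the stricter island definition, 4.17% of regions overlapped an island instead of 8.33%. With a hotspot within 1 kb of the TSS, macrophage genes covered rose from 1 to 2 for Benzonase and for Cyanase, stellate genes covered by DNase I from 1 to 2, and bile duct genes from 1 to 2 for Cyanase and for DNase I. Without the narrowest hotspots, Benzonase and Cyanase each covered 0 macrophage genes, and Cyanase covered 5 stellate genes instead of 8. The cause was not tested. No paired analysis was possible because each list pools its libraries, and for the same reason no replicate could be left out.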
